A study of Rattus norvegicus with 12 samples.

Results

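The genes described here are 32 markers of microglia and other macrophages, read in cultures that the labels call hippocampal neurons. They were chosen by name, as listed rat symbols reached from array probes through RefSeq transcripts, with the brightest probe standing for each gene. All 32 had a probe, out of 26896 genes and unnamed targets on the array, and 6 of them had a pair of probes. Of the 32, 23 passed the filter on dim probes and were tested among 21250 genes and targets.

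The study asked which transcripts change when excitatory synaptic input to cultured neurons is silenced for hours. Cultures from Wistar rat embryos at embryonic day 18 were grown for 14 to 15 days. The 4 groups of 3 independent cultures were blocked for 9 h, untreated at 9 h, blocked for 26 h and untreated at 26 h, and each of the 12 cultures gave total RNA for its own single-colour array. Blocked cultures received GYKI-52466 at 50 µM, an antagonist of AMPA-type glutamate receptors, together with MK-801 at 10 µM, an antagonist of NMDA-type glutamate receptors. All groups shared the strain and the Neurobasal medium, and the labels name no step that removes glia.

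Microglia are the resident macrophages of the brain. They arise from yolk sac precursors under the transcription factors PU.1 and IRF8, live on signalling through the receptor CSF1R, and carry surface receptors that read neuronal signals such as fractalkine and nucleotides. They also clear debris and synaptic material through complement C1q and phagocytic receptors. In embryonic hippocampal cultures they are a minority beside neurons and astrocytes, and a marker's level in bulk RNA does not tell fewer cells of a type apart from less RNA per cell.

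Many promoters of myeloid genes carry purine-rich sites that PU.1 binds, so the promoters of the members were searched for the letters GAGGAA on both strands. RefSeq promoters (build GRCr8, 250 bases before to 50 after the gene's start) were on hand for 23 of the 32 members. Of these, 15 held GAGGAA, or 65.2%, against 27.5% of all 27457 promoters of that length. The longer letters GAGGAAGT, which contain the shorter motif, stood in 2 member promoters, those of Cd53 and Ctss, or 8.7%, against 2.44% of all promoters. Such a match describes the letters only. The promoters below belong to the receptor that defines the lineage and to 3 members whose levels set the cultures apart further on, with each GAGGAA, or its reverse complement TTCCTC, in capitals. That of Csf1r lies at chr18:56834129-56834428 on the plus strand, that of Cd53 at chr2:197087847-197088146 on the minus strand, that of Lyz2 at chr7:54797962-54798261 on the minus strand and that of Cd14 at chr18:28611109-28611408 on the minus strand.
Csf1r: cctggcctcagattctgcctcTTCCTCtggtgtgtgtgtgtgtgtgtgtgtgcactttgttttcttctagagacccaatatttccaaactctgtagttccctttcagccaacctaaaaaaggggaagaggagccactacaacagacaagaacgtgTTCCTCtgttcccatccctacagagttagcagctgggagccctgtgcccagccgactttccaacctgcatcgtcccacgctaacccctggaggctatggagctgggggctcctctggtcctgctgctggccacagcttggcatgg
Cd53: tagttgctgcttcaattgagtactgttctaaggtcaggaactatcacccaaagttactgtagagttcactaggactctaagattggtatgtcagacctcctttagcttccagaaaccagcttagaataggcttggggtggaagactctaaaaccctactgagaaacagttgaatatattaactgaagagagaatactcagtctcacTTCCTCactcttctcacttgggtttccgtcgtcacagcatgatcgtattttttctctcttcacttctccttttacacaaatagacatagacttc
Lyz2: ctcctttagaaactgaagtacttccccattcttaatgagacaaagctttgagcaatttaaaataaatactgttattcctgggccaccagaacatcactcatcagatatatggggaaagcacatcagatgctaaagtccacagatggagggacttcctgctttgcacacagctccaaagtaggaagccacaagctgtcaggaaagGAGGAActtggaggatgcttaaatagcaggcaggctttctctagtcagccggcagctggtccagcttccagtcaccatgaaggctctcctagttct
Cd14: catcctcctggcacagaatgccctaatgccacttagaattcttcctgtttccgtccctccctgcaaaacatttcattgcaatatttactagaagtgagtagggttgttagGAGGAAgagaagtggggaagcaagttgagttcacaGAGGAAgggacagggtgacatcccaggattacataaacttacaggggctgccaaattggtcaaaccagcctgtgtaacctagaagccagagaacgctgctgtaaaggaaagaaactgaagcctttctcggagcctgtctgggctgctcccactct
In the Cd53 promoter the GAGGAA match, which lies within the longer one, begins on the printed strand at position -44, counted back from the start. In the Lyz2 promoter the GAGGAA match begins at position -46. Csf1r and Cd14 held 2 matches each, on the opposite strand in Csf1r and on the printed strand in Cd14.

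Array quality was even. The share of the 42877 spots, controls left out, that the scanner software marked as well above background was 77.6% to 86.8% per array, and replicate arrays correlated at 0.985 to 0.994 across genes. The 6 slides went through the scanner on 2 days that crossed the groups. Day 1 held the blocked 26 h and untreated 9 h arrays, and day 2 held the blocked 9 h and untreated 26 h arrays. The effect of blockade averaged over both times and the effect of time averaged over treatments are balanced over days, whereas at a single time the day and the treatment cannot be told apart. All levels below are log2 of the processed signal minus the array's 75th percentile, so that 0 is the level of a bright probe, and levels of different probes are not set against each other.

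Transcripts of these markers were measured in every culture. Of the 32 genes, 18 lay well above background on all 12 arrays, 28 on at least 1 array and 4 on none. Of the defining markers, Aif1, the calcium-binding protein known as IBA1, and Csf1r were measured on all 12 arrays. Itgam, the integrin chain CD11b, was measured on 5 arrays only: 3 blocked 9 h, 1 untreated 9 h, 0 blocked 26 h and 1 untreated 26 h array. The label of microglia and macrophage markers is therefore borne by Aif1 and Csf1r in every culture and by Itgam in a minority.

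**Figure D1:**
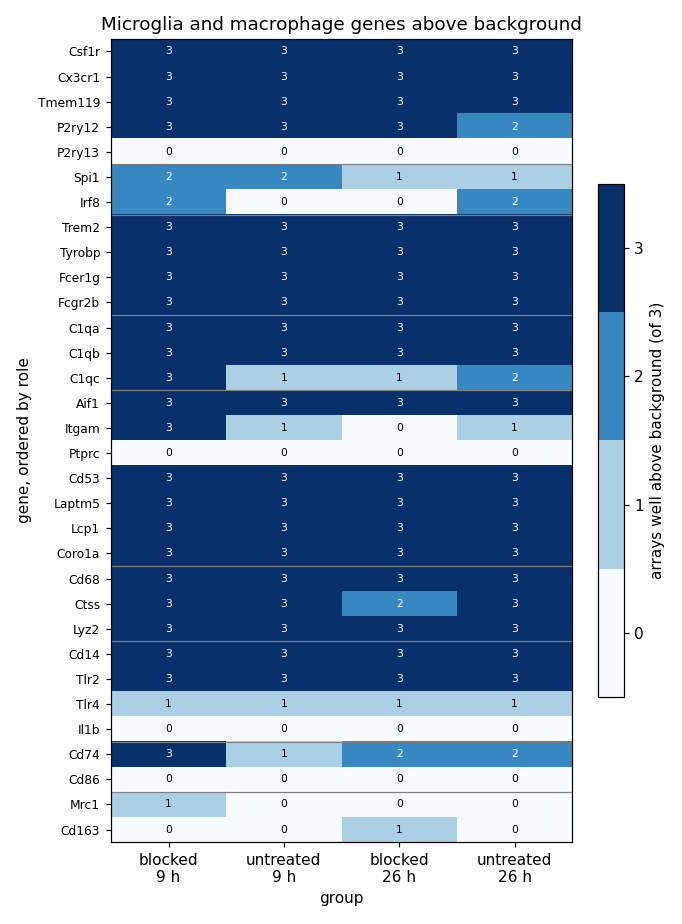
Number of arrays, of 3 in each group, on which a gene's brightest probe lay well above background (columns: groups; rows: the 32 genes, ordered by role with grey lines between roles). Of the genes, 18 reach 3 in every group, and P2ry13, Ptprc, Il1b and Cd86 are at 0 throughout.

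Among the receptors that mark microglia, Cx3cr1, the fractalkine receptor, Tmem119, a membrane protein specific to microglia in the brain, and Csf1r were above background everywhere, and P2ry12, the ADP receptor that steers microglial processes, on 11 of 12 arrays. P2ry13, a related nucleotide receptor, was on none. The transcription factors were dim. Spi1, which encodes PU.1, was above background on 6 arrays and Irf8 on 4, and neither was tested.

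All 4 receptors and adaptors of the Fc and TREM type were measured on all arrays: Trem2, a lipid-sensing receptor, Tyrobp, its signalling adaptor DAP12, Fcer1g, the common gamma chain of Fc receptors, and Fcgr2b, the inhibitory Fc gamma receptor. C1qa and C1qb, chains of the complement starter C1q, were on all 12 arrays, and C1qc, the third chain, was on 7.

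Among leukocyte surface and actin genes, Cd53, a tetraspanin, Laptm5, a lysosomal membrane protein, Lcp1, the actin bundler L-plastin, and Coro1a, the actin regulator coronin 1A, were on all arrays. Ptprc, the leukocyte phosphatase CD45, was on none through either of its probes. Cd68 and Lyz2, a lysosomal glycoprotein and lysozyme, were on all 12 arrays, and the lysosomal protease Ctss was on 11.

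Innate sensors divided. Cd14, the co-receptor for lipopolysaccharide, and Tlr2, a receptor for bacterial lipopeptides, were on all 12 arrays, while Tlr4, the lipopolysaccharide receptor, was on 4 and the cytokine Il1b on none. Of the antigen presentation genes, Cd74, the invariant chain, was on 8 arrays and the costimulator Cd86 on none. Mrc1 and Cd163, scavenger receptors known from macrophages at the borders of the brain, were on 1 array each, a blocked 9 h array for Mrc1 and a blocked 26 h array for Cd163.

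Of the 4 genes above background on no array, Ptprc and Il1b had readings that lay apart between the scan days. Ptprc read between -10.79 and -9.87 on the 6 day 2 arrays and between -9.82 and -9.44 on the 6 day 1 arrays, and Il1b between -10.69 and -9.92 on day 2 and between -9.71 and -9.40 on day 1. P2ry13, between -10.73 and -10.05 on day 2 and between -10.06 and -8.83 on day 1, and Cd86, between -10.82 and -9.90 on day 2 and between -10.02 and -9.19 on day 1, overlapped between days. These readings are bounds and were not tested. The signal of the array's empty corner spots lay between -10.70 and -9.73 on day 2 and between -9.85 and -9.42 on day 1.

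Averaged over both times, blockade raised 1 of the 23 tested genes and lowered none in the limma fit (adjusted p under 0.05 over all genes), which is 4.35% of them, against 4.45% of all genes and targets, of which 2.23% were higher and 2.22% lower. That gene was Fcgr2b. The median difference of the 23 was 0.03, against -0.02 for all genes, with 14 of 23 above 0 and 4 of 23 at an unadjusted p under 0.05. In 0 of the 23 genes did all blocked arrays of both times lie on one side of all untreated arrays, against 1.45% of all genes and targets. The share of genes called was thus near that of the whole array.

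Fcgr2b passes an inhibitory signal when immune complexes bind. Its levels were -4.61, -4.64 and -5.20 in blocked 9 h cultures, -4.70, -4.62 and -5.08 in untreated 9 h cultures, -3.87, -3.57 and -4.34 in blocked 26 h cultures and -5.63, -5.31 and -6.24 in untreated 26 h cultures. The blocked and untreated arrays overlapped at 9 h and lay apart at 26 h. The average difference was 0.89 ± 0.19 (SE, n = 6 arrays against 6), with a 95% interval of 0.46 to 1.32 and an adjusted p of 0.0283 in limma. Comparing blocked with untreated arrays within a scan day gave 0.87 on day 1, where the blocked arrays are those of 26 h, and 0.91 on day 2, where they are those of 9 h, so that each within-day value also holds the difference between times. The call was lost under quantile normalization and median scaling, where the differences were 0.93 and 0.91, and on leaving out blocked 9 h replicate 1 or 2, untreated 9 h replicate 3, blocked 26 h replicate 1 or 2 or untreated 26 h replicate 3. Over all alternatives the limma adjusted p lay between 2.64e-04 and 0.317.

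The gene's second, dimmer probe also rose on average, with a different course. It read -4.36, -4.49 and -4.46 in blocked 9 h cultures, -5.26, -4.82 and -4.97 in untreated 9 h cultures, -5.16, -4.91 and -5.07 in blocked 26 h cultures and -5.57, -5.26 and -5.67 in untreated 26 h cultures. Blocked arrays lay above untreated ones without overlap at each time. In a limma fit of each probe by itself, a choice made after seeing the data, the average difference was 0.51 ± 0.10 (SE, adjusted p 0.019), with 0.58 at 9 h (adjusted p 0.0185) and 0.45 at 26 h (adjusted p 0.0577). The probes thus shared the direction of the average and not its timing.

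For the defining markers the averages did not pass the test. Aif1 read -3.94, -3.80 and -3.56 in blocked 9 h cultures, -4.45, -4.20 and -3.49 in untreated 9 h cultures, -4.51, -4.07 and -4.03 in blocked 26 h cultures and -4.10, -3.75 and -3.71 in untreated 26 h cultures. Groups overlapped at both times, and the average difference was -0.03 ± 0.17 (SE, 95% interval -0.41 to 0.35, limma adjusted p 0.962). The dimmer probe of Aif1 did not pass either, at -0.83 at 9 h (limma adjusted p 0.125), 0.61 at 26 h (limma adjusted p 0.269) and -0.11 on average (limma adjusted p 0.894), where the brighter probe gave 0.28 at 9 h and -0.35 at 26 h. At 26 h the dimmer probe read -6.75, -6.32 and -6.73 in blocked cultures against -7.09, -7.03 and -7.51 in untreated cultures, without overlap, so the probes differed in direction at each time. Csf1r read -4.66, -4.04 and -4.51 in blocked 9 h cultures, -4.96, -4.51 and -4.14 in untreated 9 h cultures, -4.38, -4.14 and -3.98 in blocked 26 h cultures and -4.30, -5.04 and -3.92 in untreated 26 h cultures. Its average difference was 0.20 ± 0.21 (SE, 95% interval -0.27 to 0.66, limma adjusted p 0.738), again with overlap at both times, and its dimmer probe gave -0.16 (limma adjusted p 0.864).

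Itgam was the least certain of the markers. Its levels were -4.54, -7.71 and -7.70 in blocked 9 h cultures, -9.69, -9.65 and -7.40 in untreated 9 h cultures, -9.62, -9.70 and -9.93 in blocked 26 h cultures and -7.56, -9.15 and -8.85 in untreated 26 h cultures. Blocked 9 h culture 1 stood far above the rest, and untreated 9 h culture 3 lay among the blocked arrays of that time. The gene passed the filter on dim probes only through the blocked 9 h arrays, and in the other groups at most 1 array of 3 was above background, so its differences are in part against background readings and no fold is given. The average difference did not pass (limma adjusted p 0.767), nor did that at 9 h (limma adjusted p 0.0934, between 0.0312 and 0.46 over the alternatives). The 9 h difference passed under quantile normalization and without untreated 9 h replicate 3, the only untreated 9 h array above background. Because the blocked 9 h arrays admitted the gene to the test, no conclusion is drawn from its 9 h comparison in any fit.

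Another 3 actin and surface genes came close to the threshold on average. Coro1a differed by -0.28 (limma adjusted p 0.0542), Cd53 by 0.80 (0.0704) and Lcp1 by 0.27 (0.0792). Fitted with the replicate number as a block, these passed, at adjusted p 0.0074, 4.24e-04 and 0.0117 in limma. The count became 4 of 23, and the share of all genes and targets called rose to 13.2% in that fit. Within a scan day only Cd53 kept its sign, with 1.07 on day 1 and 0.53 on day 2, whereas Lcp1 gave 0.74 and -0.20 and Coro1a 0.04 and -0.59.

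**Figure D2:**
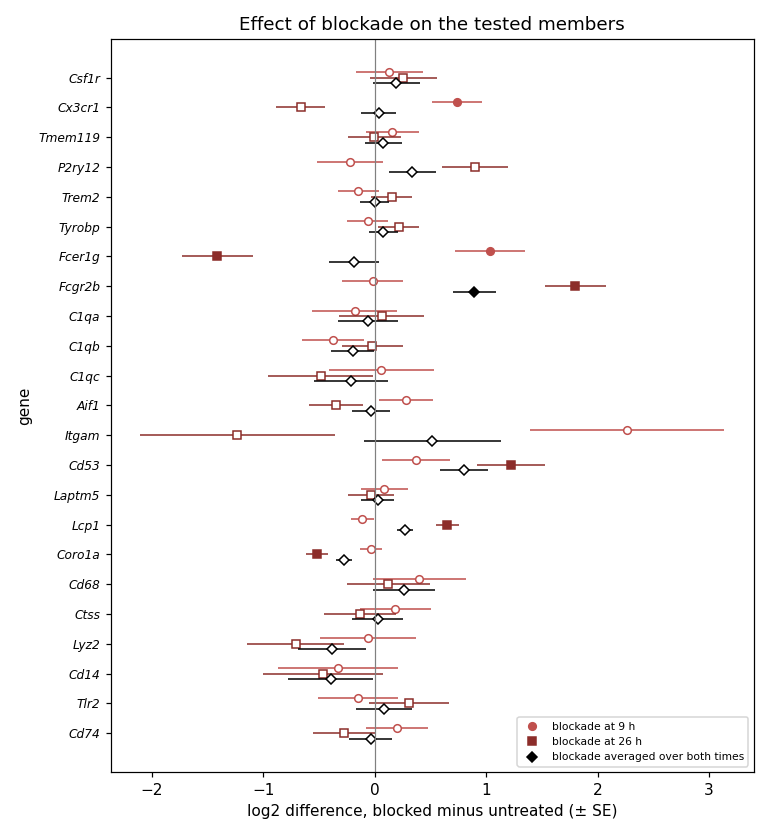
Log2 difference, blocked minus untreated (± SE, x axis), for the 23 tested genes (rows), at 9 h (circles), at 26 h (squares) and averaged (diamonds). Filled symbols passed the limma threshold: Cx3cr1 and Fcer1g at 9 h, Fcgr2b, Cd53, Lcp1, Fcer1g and Coro1a at 26 h, and Fcgr2b on average. The points of Itgam, C1qc and Cd74 rest in part on background readings.

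At 9 h, blockade raised 2 of the 23 genes, Cx3cr1 and Fcer1g, and lowered none, which is 8.7%, against 21.1% of all genes and targets (11.4% higher and 9.63% lower). Blocked and untreated arrays did not overlap in 3 of the 23 genes, Cx3cr1, Fcer1g and Cd68, all higher in blocked cultures, against 34.7% of all genes and targets in either direction. The shares were not compared by a test. The day difference described above is part of every value at a single time.

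Cx3cr1 receives fractalkine from neurons. It read -0.48, -0.15 and -0.89 in blocked 9 h cultures against -1.56, -1.03 and -1.15 in untreated 9 h cultures, with no overlap. The difference was 0.74 ± 0.22 (SE, limma adjusted p 0.0386). At 26 h the levels were -0.77, -0.65 and -0.59 in blocked cultures against -0.39, 0.28 and 0.08 in untreated cultures, again apart but the other way round, at -0.66 ± 0.22 (SE, limma adjusted p 0.0687, or 0.0205 with the replicate number as a block). Blocked minus untreated gave 0.58 within day 1 and -0.50 within day 2. The call at 9 h was lost on leaving out any single array other than blocked 9 h replicate 3 and untreated 26 h replicates 1 and 2, and with slide as a random block (limma adjusted p 0.05), with differences between 0.56 and 0.98 over the alternatives.

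Fcer1g transmits signals from Fc receptors. Its levels were -5.52, -4.87 and -4.21 in blocked 9 h cultures against -6.06, -5.96 and -5.68 in untreated 9 h cultures, and -6.54, -5.99 and -6.50 in blocked 26 h cultures against -5.30, -5.00 and -4.49 in untreated 26 h cultures. The groups did not overlap at either time, and the signs were opposite. The differences were 1.03 ± 0.32 at 9 h (SE, limma adjusted p 0.0423) and -1.41 ± 0.32 at 26 h (SE, limma adjusted p 0.0157), and the average was -0.19 (limma adjusted p 0.767). The dimmer probe of Fcer1g gave -0.15 at 9 h (limma adjusted p 0.821) and -0.66 at 26 h (limma adjusted p 0.257), so neither call was seen through it. On leaving out a single array, the 9 h call of the brighter probe was lost in most fits. It was kept without blocked 9 h replicate 1, blocked 26 h replicate 2 or untreated 26 h replicate 1 or 3. That call was also lost with normexp background correction and with the mean of probes, and kept under the other normalizations, filters and blocks. The 26 h call was lost without blocked 26 h replicate 1 or untreated 26 h replicate 2 or 3. Both calls were lost without all arrays of replicate 2 or of replicate 3.

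At 26 h, Fcgr2b, Cd53 and Lcp1 were higher and Fcer1g and Coro1a lower in blocked cultures. These were 5 of the 23 genes or 21.7%, against 16.3% of all genes and targets (6.88% higher and 9.46% lower). The scan day is part of these differences too, with the blocked arrays on day 1 and the untreated arrays on day 2. Blocked and untreated arrays did not overlap in 8 of the 23 genes, against 38.1% of all genes and targets. In blocked cultures 4 were higher, Fcgr2b, Cd53, Lcp1 and P2ry12, and 4 lower, Fcer1g, Coro1a, Cx3cr1 and Itgam. Itgam was above background on 0 blocked and 1 untreated 26 h array, so its separation is largely one of background readings. With the replicate number as a block the count was 8, with Cx3cr1, Lyz2 and P2ry12 added. In that fit 31.7% of all genes and targets were called. The median of the 23 differences was -0.02, against -0.05 for all genes.

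The Fcgr2b difference at 26 h was 1.80 ± 0.27 (SE, limma adjusted p 0.0032), a 95% interval of 1.19 to 2.41. Cd53, a tetraspanin of leukocyte membranes, read -4.50, -4.70 and -5.20 in blocked 26 h cultures against -5.66, -5.86 and -6.57 in untreated 26 h cultures. All blocked arrays lay above all untreated ones, by 1.23 ± 0.30 (SE, limma adjusted p 0.0231). At 9 h Cd53 read -5.17, -5.40 and -5.93 in blocked cultures against -5.41, -6.02 and -6.19 in untreated cultures, where the groups overlapped. In each same-numbered pair the blocked culture was higher, at 0.37 (limma adjusted p 0.444, or 0.0248 with the replicate number as a block). The 26 h call of Cd53 was lost in 8 of 26 alternatives, among them quantile normalization and leaving out blocked 26 h replicate 1 or 2 or untreated 26 h replicate 2 or 3.

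Lcp1 bundles actin in leukocytes. It read -3.85, -3.65 and -3.81 in blocked 26 h cultures against -4.43, -4.41 and -4.43 in untreated 26 h cultures, with no overlap and little spread. The difference was 0.65 ± 0.11 (SE, limma adjusted p 0.0042). At 9 h it read -4.68, -4.49 and -4.69 in blocked cultures against -4.58, -4.33 and -4.63 in untreated cultures, which overlapped, at -0.11 (limma adjusted p 0.527).

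Coro1a, which leukocytes use to remodel cortical actin and which neurons in mice make too, was lower in blocked than in untreated cultures at 26 h. It read 2.68, 2.68 and 2.54 in blocked 26 h cultures against 3.29, 3.17 and 3.01 in untreated 26 h cultures, without overlap, a difference of -0.52 (SE 0.10, limma adjusted p 0.0078). The untreated 26 h mean of 3.15 stood apart. The means were 2.64 in blocked 26 h, 2.56 in blocked 9 h and 2.60 in untreated 9 h cultures. The 9 h cultures read 2.58, 2.64 and 2.46 when blocked against 2.64, 2.61 and 2.54 when untreated, with overlap, and differed by -0.04 (limma adjusted p 0.843). Under median scaling the 26 h difference was -0.47 and no longer passed, and the call was also lost with the deposited matrix. It was kept in 21 of 26 alternatives.

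**Figure D3:**
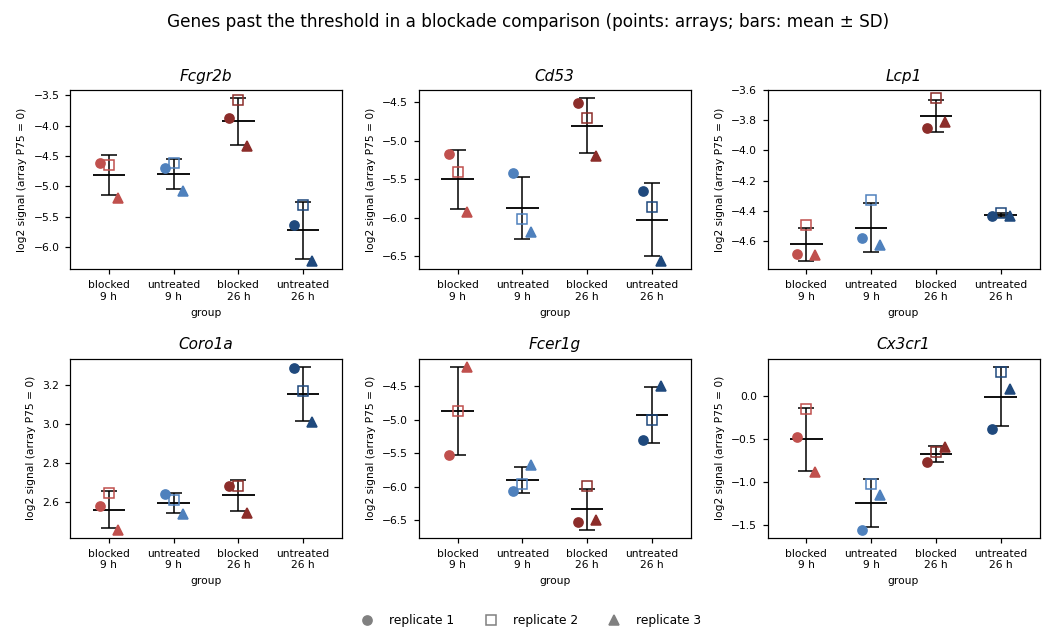
Levels of the 6 genes past the threshold in a comparison of blockade (y axis: log2 signal with the array's 75th percentile at 0; x axis: groups; symbols: replicate numbers; bars: mean ± SD of 3). Fcer1g and Cx3cr1 lie higher in blocked 9 h and lower in blocked 26 h cultures, and Fcgr2b, Cd53 and Lcp1 lie higher in blocked 26 h than in untreated 26 h cultures.

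The remaining 17 tested genes passed in none of the 3 comparisons. In P2ry12, which read -6.02, -5.86 and -6.18 in blocked 26 h cultures against -7.65, -6.63 and -6.48 in untreated 26 h cultures, the groups lay apart at 26 h, by 0.90 ± 0.30 (SE, limma adjusted p 0.0659). Tmem119 differed by 0.08 on average (95% interval -0.29 to 0.45), Trem2 by 0.00 (-0.29 to 0.29) and its adaptor Tyrobp by 0.08 (-0.21 to 0.36). The C1q genes all lay below 0 on average, at -0.06 for C1qa, -0.20 for C1qb and -0.21 for C1qc. Like Itgam, C1qc and Cd74 passed the filter on dim probes only through the blocked 9 h arrays, so their differences rest in part on background readings. Cd14 differed by -0.40 ± 0.38 and Lyz2 by -0.38 ± 0.31 (SE). Cd68 differed by 0.26, from 2 blocked 9 h arrays because the third value was dropped as a spot outlier. Ctss (0.03), Laptm5 (0.03), Tlr2 (0.08) and Cd74 (-0.04) lay near 0.

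Signs at 9 h and 26 h were opposite in 16 of the 23 genes, among them Itgam, C1qc and Cd74 with their background readings. Across the array 28.6% of genes and targets passed the test of the difference between the 26 h and 9 h effects, and among the 23 genes 5 did, or 21.7%: Fcgr2b, Lcp1, Coro1a, Cx3cr1 and Fcer1g. This contrast equals that of day 1 against day 2, from which it cannot be told apart.

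Averaged over treatments, 3 of the 23 genes were called higher at 26 h, or 13%, against 12.7% of all genes and targets (4.93% higher and 7.78% lower), and none lower. Lcp1 was 0.47 higher at 26 h than at 9 h (SE 0.08, limma adjusted p 0.0040), Coro1a 0.32 higher (SE 0.07, limma adjusted p 0.0165) and Cx3cr1 0.54 higher (SE 0.16, limma adjusted p 0.0498). The treatments were unlike in these genes. From 9 h to 26 h the mean of Cx3cr1 went from -1.25 to -0.01 in untreated cultures and from -0.51 to -0.67 in blocked ones. That of Coro1a went from 2.60 to 3.15 in untreated cultures and from 2.56 to 2.64 in blocked ones. Lcp1 went from -4.51 to -4.43 in untreated cultures and from -4.62 to -3.77 in blocked ones. Within a treatment the times lay on different scan days. The call of Cx3cr1 was lost on leaving out any single array other than blocked 9 h replicate 2 and untreated 26 h replicate 1. That call was also lost with the deposited matrix, without the filter on dim probes, with outlier spots kept and with the mean of probes. Lyz2 at -0.65, Cd68 at -0.51 and Ctss at -0.48, the lysosomal genes, all lay on the side of a lower level at 26 h without passing. Lyz2 did pass, as lower at 26 h, with the replicate number as a block, with slide as a random or fixed block and with array weights. With the replicate block the count was 5 of 23, Cd53, Coro1a, Cx3cr1 and Lcp1 being higher and Lyz2 lower. In that fit 26.8% of all genes and targets were called in either direction.

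Cultures that carried the same replicate number in the 4 groups shared levels of many of these genes. An F test of the replicate number in limma, with group in the model, called 10 of the 23 genes, or 43.5%, against 29.9% of all genes and targets. They were Fcgr2b, Cd53, Lyz2, Cd14, Tmem119, Laptm5, C1qc, C1qa, Aif1 and Cd74. Of these, C1qc and Cd74 passed the filter on dim probes only through the blocked 9 h arrays, so their values rest in part on background readings. The calls rested on replicate 3. Without its arrays the test called none of the 23 genes and 1.03% of all genes and targets. The share of all was 14.7% without replicate 1 and 29.5% without replicate 2. That replicate 3 stands apart in other genes was known from an earlier account of these arrays, and the differences of replicate 3 below are a description.

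Replicate 3 lay above the mean of replicates 1 and 2 in all 4 groups for 7 of the 23 genes, or 30.4%, against 41.5% of all genes and targets. These were Cd14, Cd74, Tmem119, C1qc, Aif1, Laptm5 and Trem2. It lay below in all 4 groups for 6 genes, or 26.1%, against 17.4% of all: Lyz2, Cd53, Fcgr2b, Cd68, Coro1a and Lcp1. The microglial markers thus did not move as a block with the replicate number.

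Cd14 senses lipopolysaccharide with TLR4. It read -3.28, -2.40 and -2.24 in blocked 9 h replicates 1, 2 and 3, -2.94, -2.25 and -1.74 in untreated 9 h, -3.33, -2.90 and -1.95 in blocked 26 h and -3.36, -2.03 and -1.39 in untreated 26 h replicates. Replicate 3 was the highest and replicate 1 the lowest in every group, with replicate 3 on average 0.98 above the others (F test adjusted p 0.0018 in limma). Tlr4, above background on 1 array of each group, read -7.38, -7.18, -7.14 and -7.24 in the 4 replicate 3 arrays and between -10.35 and -8.87 in the other arrays.

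Lyz2, the lysozyme gene of macrophages, went the other way. It read 0.91, 0.45 and -0.09 in blocked 9 h replicates 1, 2 and 3, 0.87, 0.51 and 0.07 in untreated 9 h, 0.02, -0.52 and -1.15 in blocked 26 h and 1.07, -0.12 and -0.47 in untreated 26 h replicates. Replicate 1 was the highest and replicate 3 the lowest in every group, and replicate 3 lay on average 0.81 below the others (a difference of -0.81, F test adjusted p 0.0019 in limma). Cd53 at -0.63 and Fcgr2b at -0.59 shared that direction, with F test adjusted p of 0.0016 and 0.0023 in limma.

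Tmem119 read -4.43, -4.41, -4.65 and -4.60 in the replicate 3 arrays of blocked 9 h, untreated 9 h, blocked 26 h and untreated 26 h cultures, above the other arrays of each group, by 0.48 on average (F test adjusted p 0.0079 in limma). Its dimmer probe also had replicate 3 highest in every group, with -6.37, -5.19 and -4.22 in blocked 9 h replicates 1, 2 and 3. The median difference of replicate 3 from the others was -0.02 for the 23 genes, against 0.38 for further microglia and myeloid genes, 0.41 for oligodendrocyte markers and 0.11 for all genes.

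Markers of meningeal, fibroblast and vascular cells moved with the replicate number too. Of 16 such genes, 14 were tested and measured on all 12 arrays. The F test called 9 of the 14 in limma, against 29.9% of all genes and targets, and the median difference of replicate 3 was 0.80. Replicate 3 was higher in all 4 groups for 8 of the 14 and lower in all 4 for 2, against 41.5% and 17.4% of all. Their summed signal, on the log2 scale, lay between 4.83 and 5.12 in the 4 replicate 3 arrays, between 2.63 and 3.25 in the replicate 2 arrays and between 1.03 and 1.90 in the replicate 1 arrays. Such a sum is weighted to the brightest genes. That order, without overlap, is the order of Cd14 and of the dimmer Tmem119 probe and the reverse of that of Lyz2. It was not particular to these markers. The summed signal of 11 tested astrocyte markers had the same order within each group, as at 6.07, 6.32 and 6.55 in untreated 26 h replicates 1, 2 and 3. The part of any of these cell types in the differences of the microglial genes was not tested.

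**Figure D4:**
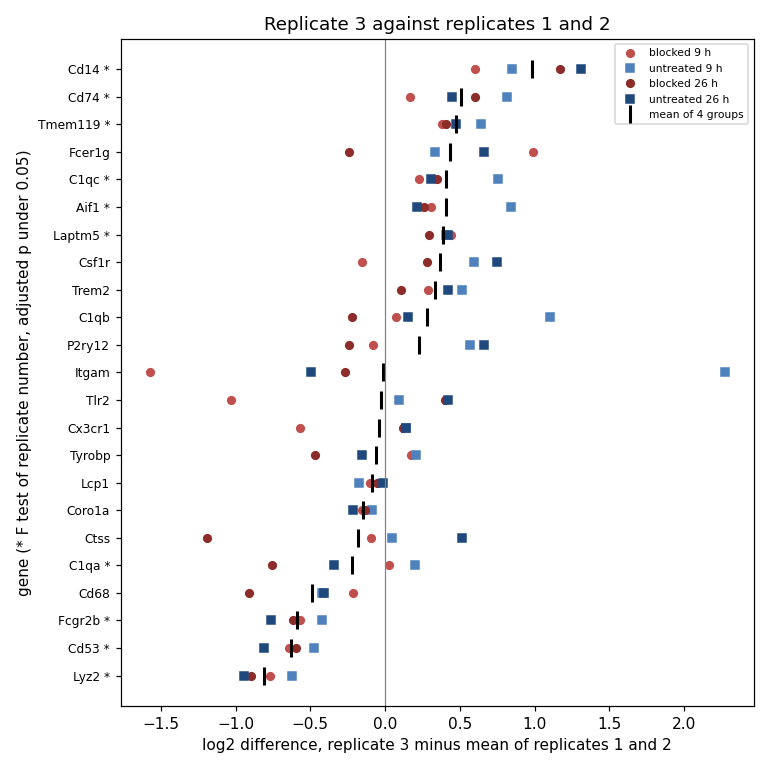
Replicate 3 minus the mean of replicates 1 and 2 (x axis, log2) for each tested gene (rows), in the 4 groups (coloured points) and averaged (black bars). Asterisks mark an F test adjusted p under 0.05. Cd14 lies highest at 0.98 and Lyz2 lowest at -0.81, with all 4 groups on the same side of 0.

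Beyond the 32 genes, 81 further microglia and myeloid genes and 16 genes for ligands that act on microglia were listed. Of 45 tested myeloid genes, blockade on average raised 0 and lowered 1, Blnk, in limma. Of 13 tested ligand genes it raised 1, Il34, and lowered 0. The median differences were -0.06 and 0.02, against -0.02 for all genes. At 9 h the myeloid genes gave 1 rise, Csf2ra, a receptor chain for GM-CSF (0.46, limma adjusted p 0.0088), and 1 fall, and at 26 h 0 rises and 2 falls, Blnk and Arhgdib (-0.97, limma adjusted p 0.0395). The ligand genes gave 2 rises and 0 falls at each time, Cd200 and Il34 at 9 h and Il34 and Hmgb1, an alarmin (0.52, limma adjusted p 0.0464), at 26 h. Of all genes and targets, 4.45% were called on average, 21.1% at 9 h and 16.3% at 26 h, and the shares were not compared by a test.

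Il34 encodes interleukin 34, a ligand of CSF1R that neurons make. It read 0.59, 0.03 and 0.22 in blocked 9 h cultures, -0.12, -0.40 and -0.45 in untreated 9 h cultures, 1.80, 1.65 and 1.64 in blocked 26 h cultures and -0.03, -0.47 and 0.00 in untreated 26 h cultures. Every blocked array lay above every untreated array. The average difference was 1.23 ± 0.12 (SE, limma adjusted p 3.72e-04). At 9 h it was 0.60 (limma adjusted p 0.0312), and at 26 h 1.86 (limma adjusted p 2.91e-04). Within day 1 it was 2.02 and within day 2 0.45. The 9 h call was lost on leaving out blocked 9 h replicate 1 or 3 or untreated 9 h replicate 2 or 3. The average passed in 27 of 28 alternatives with a test, the exception being the fit without the arrays of replicate 2.

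The other ligand of CSF1R and that of CX3CR1 did not pass. Csf1 differed by -0.05 ± 0.35 on average (SE, limma adjusted p 0.976). Cx3cl1, fractalkine, which neurons carry on their surface, differed by -0.15 ± 0.10 (SE, limma adjusted p 0.566). Its difference was 0.12 at 9 h and -0.42 at 26 h. Cd200, a neuronal ligand that restrains microglia, was 0.66 higher at 9 h (SE 0.18, limma adjusted p 0.0291).

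Blnk, an adaptor of B cell and macrophage receptor signalling, had the largest fall among the listed myeloid genes. It read -5.41, -4.58 and -4.82 in blocked 9 h cultures, -3.46, -3.07 and -2.67 in untreated 9 h cultures, -6.17, -6.73 and -5.82 in blocked 26 h cultures and -4.66, -3.35 and -3.10 in untreated 26 h cultures. Blocked arrays lay below untreated ones at each time without overlap. On average it fell by 2.20 (SE 0.29, limma adjusted p 0.0021), by 1.87 at 9 h and by 2.54 at 26 h. Within day 1 the difference was -3.17 and within day 2 -1.24.

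Cd3e, Cd2 and Cd8a, which define T cells, were above background on 0 of the 12 arrays, while Cd3d, Lck and Zap70, genes of T cell receptor signalling, were on all 12. The part of such cells in the change of Blnk was not tested.

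**Figure D5:**
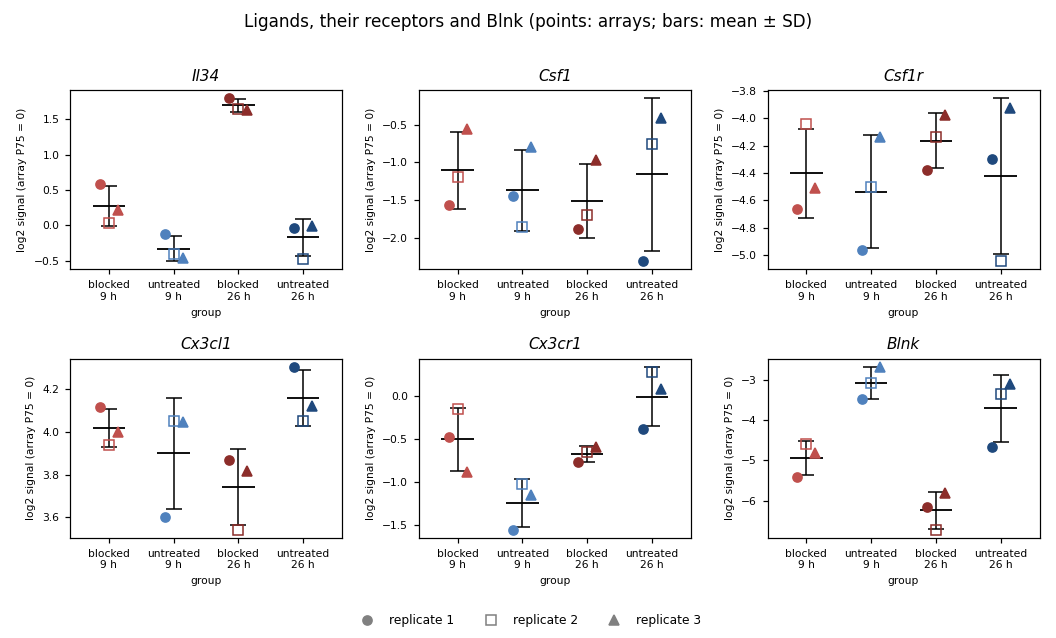
Levels of Il34, Csf1 and Cx3cl1, of their receptors Csf1r and Cx3cr1, and of Blnk (y axis: log2 signal with the array's 75th percentile at 0; x axis: groups; symbols: replicate numbers; bars: mean ± SD of 3). Il34 lies between 1.64 and 1.80 in blocked 26 h cultures, above all other arrays, and Blnk lies lower in blocked than in untreated cultures at each time.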

How the data were processed

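Total RNA from 12 cultures was labelled with Cy3 and hybridised to single-colour Agilent arrays, per the labels' protocols. The scanner output came from Agilent Feature Extraction 10.5.1.1, per the file headers, and its processed signal is a background-subtracted intensity that was not scaled across arrays. A deposited matrix gives log2 values, and its columns equal log2 of the processed signal minus 1 constant per array (slope 1). Its column medians run from 7.57 to 7.75, and the rule behind the constants is not given in the sources used here.

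Log2 of the processed signal minus the array's 75th percentile was used here. Control spots and 3751 outlier-flagged spot values were left out, and spots of a probe were averaged. The filter kept 24034 of 30367 probes, those well above background on every array of 1 or more groups. Of all probes 18004 matched a gene through RefSeq transcripts, and the brightest kept probe stood for a gene. One model with a mean per group was fitted with limma 3.58.1 (lmFit, eBayes, R 4.3.3), two-sided, with Benjamini-Hochberg adjustment over all genes of a contrast and a threshold of 0.05. The fitting was tested on simulated data.

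Members, lists and tests were chosen with earlier results of these data known. All members are accounted for by name. Full statistics go to members past the threshold and to Aif1, Csf1r and Itgam, and of other lists at most the 3 largest rises and falls per contrast are named. P2ry12, Csf1, Cx3cl1, Runx1 and the members named with values by replicate number were added after their values were seen.

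Scan day and slide came from the file headers. Same-numbered blocked and untreated arrays of a time correlated at 0.177 to 0.657 after removal of group means. A fit with the replicate number as a block, which pairs these arrays, is therefore given beside the main fit. The main fit does not pair them, and its statistics are those given unless another fit is named. The lowest same-numbered correlation of all was -0.04, between untreated 26 h and untreated 9 h replicate 2. Median standard errors were 0.12 for the average and 0.17 for 1 time. The number of arrays limits this precision. Some of the listed markers of other cell types are not reported here.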

Additional observations from a re-analysis of the deposited data

Results flagged for a closer look

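For 5 genes the effect of blockade at 26 h differed from that at 9 h by a test of the difference itself in limma, with adjusted p under 0.05. The difference, 26 h effect minus 9 h effect, was 1.82 for Fcgr2b, the inhibitory Fc receptor (adjusted p 0.0063), and 0.76 for Lcp1, L-plastin (adjusted p 0.0045). It was -0.48 for Coro1a, coronin 1A (adjusted p 0.0265), -1.40 for Cx3cr1, the fractalkine receptor (adjusted p 0.0080), and -2.44 for Fcer1g, the Fc receptor gamma chain (adjusted p 0.0031). This difference is also that of scan day 1 against scan day 2, so time dependence and scan day cannot be told apart. The dimmer probes of Fcgr2b and Fcer1g gave no call for it, at limma adjusted p 0.698 and 0.521.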

How the results depend on the processing

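Counts of the 23 genes called moved with the settings, and no called value of the 32 genes changed sign except through a second probe. For blockade on average (1 called), the count was 0 under quantile normalization and median scaling, 2 with normexp background correction and with probes above background on all arrays, and 4 with array weights and with slide as a random or fixed block. Of all genes and targets, 8.97% were called with array weights, 14.1% with slide as a random block and 10.8% with slide as a fixed block. Leaving out replicates gave 0 to 2, and without the arrays of replicate 2 only 36 of 21250 genes and targets were called. For 9 h (2 called), it was 1 with normexp, the mean of probes or slide as a random block, 6 without the filter on dim probes, and 0 to 2 on leaving out replicates. For 26 h (5 called), leaving out replicates gave 0 to 6. For time (3 called), the deposited matrix gave 1, slide as a random or fixed block 5, and leaving out replicates 0 to 3. The share of all genes and targets called for time was 28.4% with slide as a random block and 24.4% with slide as a fixed block. For the day-linked contrast (5 called), quantile normalization gave 8, no filter 9 and leaving out replicates 0 to 6. The counts without the filter, 6 and 9, are of all 32 genes and each hold 4, Cd86, Il1b, P2ry13 and Ptprc, that were above background on no array. The F test of the replicate number (10 called) gave 0 to 10 on leaving out replicates, with 0 reached without the arrays of replicate 3. The share of genes above background was 87.5% on at least 1 array and 71.9% on all 3 arrays of a group.

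With the replicate block, which pairs same-numbered cultures, the counts were 4 on average, 3 at 9 h, 8 at 26 h, 5 for time and 10 for the day-linked contrast. The shares of all genes and targets called in that fit were 13.2%, 35.9%, 31.7%, 26.8% and 44.7%, in the same order. The dimmer probe turned the sign of Fcer1g at 9 h (-0.15) and of the Fcgr2b day-linked contrast, which is the 26 h effect minus the 9 h effect divided by 2 (-0.063). Il34 had a time difference of -0.45 within scan day 2, against 0.79 over both days. This value mixes time and treatment by construction. The causes were not tested. Genes near background, Itgam above all, are read with little precision.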

Other observations

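Among the further myeloid genes, time averaged over treatments lowered 4 of 45 and raised 0 in limma, against 7.78% lower and 4.93% higher among all genes and targets. Ccl2, a chemokine that draws monocytes, was 1.93 lower at 26 h than at 9 h (a difference of -1.93, adjusted p 0.0480), and Dock8, a regulator of leukocyte migration, differed by -1.26 (adjusted p 0.0233). Plcg2, a phospholipase downstream of TREM2, differed by -0.88 (adjusted p 0.0235), and Runx1, a transcription factor of blood lineages, by -0.61 (adjusted p 0.0317). Spi1, which was not tested, read -4.50 in untreated 9 h replicate 3 and between -8.72 and -6.93 on the other 11 arrays.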
